A study of Mus musculus with 8 samples.

Results

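The desmosomal genes described here are 10 members of the junction that fastens keratinocytes to each other, namely the cadherins Dsc1, Dsc2, Dsc3, Dsg1a, Dsg2 and Dsg3, the armadillo proteins Jup, Pkp1 and Pkp3, and the plakin Dsp. They were followed through every probeset whose annotation gave exactly 1 of these symbols, which found 20 of the 34945 single-symbol probesets. These 20 probesets belonged to 9 of the 10 genes. Dsg3 was matched by 0 of them and was not analysed here. Dsg2 had 6 probesets, Dsp had 3, Dsc1, Dsc2, Dsc3 and Pkp3 had 2 each, and Dsg1a, Jup and Pkp1 had 1 each.

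Gene expression was measured in dorsal skin of wild-type mouse embryos on 8 Affymetrix arrays. Embryonic day 14.5 (E14.5) had 2 of them, and E16.5 and E18.5 had 3 each. All groups were untreated whole skin of the same genotype and differed in age. The labels do not say that the arrays of a stage came from separate embryos, so p-values here reflect only variation among these arrays, which may be technical.

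In a desmosome, desmogleins (Dsg) and desmocollins (Dsc) of neighbouring cells bind each other outside the membrane. Inside, plakoglobin (Jup) and the plakophilins (Pkp) bind the cadherin tails, and desmoplakin (Dsp) ties this plaque to keratin filaments. In stratified epidermis Dsc3 and Dsg3 are strongest in the basal and lower layers, Dsg2 is largely basal and also found in simple epithelia, and Dsc2 is widely expressed among epithelia. Dsc1 and Dsg1 mark the upper, differentiating layers, where they become part of the corneodesmosomes that hold corneocytes together. Pkp1 is most abundant in the suprabasal layers, Pkp3 is found throughout the epidermis, and Jup and Dsp serve all layers.

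The E14.5 arrays stood apart in their control probesets. Their beta-actin 3′ over 5′ signal ratio was 6.49 and 6.91, while the E16.5 arrays had 1.11 to 1.14 and the E18.5 arrays had 1.35 to 1.37. Their overall median signal was 63.4 and 60.8, while later arrays had 120.1 to 152.6. Stage and array preparation cannot be told apart in a comparison with E14.5, and E18.5 against E16.5 is given first. Background, taken as the 95th percentile of 80 olfactory and vomeronasal receptor probesets, was a signal of 33.6 to 53.2 at E14.5 and E16.5 and 62.2 to 92.2 at E18.5. Of the 20 desmosomal probesets, 13 were above background on all 8 arrays.

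Basal and suprabasal epidermal markers were above background on all 8 arrays, except Flg, which had 37.5 and 9.16 at E14.5, below background. The summed signal of Krt5, Krt14, Krt15 and Trp63, which mark basal keratinocytes, reached 18940 to 24414 on the E14.5 arrays, 43107 to 49155 on the E16.5 arrays and 51122 to 62489 on the E18.5 arrays. That of the suprabasal markers Krt1, Krt10, Lor, Ivl and Flg reached 29759 to 44600, then 84760 to 98273, then 116993 to 124742. Not every marker followed these sums. Between E14.5 and E16.5, Trp63 was called lower (log2 change -1.27), while 3 basal markers rose. Between E16.5 and E18.5, Ivl was called lower (-1.05), while 1 suprabasal marker rose and 3 were not called. Dsg2 and Dsp also serve heart muscle, whose markers Myh6 and Nppa were at or below background on all 8 arrays, while Myl7 was above it on 6. Markers of other cells also differed between E18.5 and E16.5. The summed signal of 5 hair follicle genes was 7764 to 29661 at E18.5, against 1009 to 1330 at E16.5. That of 4 dermal fibroblast genes was 97698 to 112578 at E18.5, against 73558 to 81825 at E16.5, and that of 4 periderm and simple epithelium genes was 409 to 1344 at E18.5, against 1544 to 2113 at E16.5. Endothelial genes (3) summed to 2471 to 2534 at E18.5, against 3320 to 4043 at E16.5, and melanocyte genes (2) to 4395 to 7264 at E18.5, against 1221 to 2026 at E16.5. At E14.5 the periderm and simple epithelium genes summed to 8300 to 16988. Limma called 3 of these 4 lower at E16.5, where 18.7% of all probesets fell. The E14.5 sums were 294 to 438 for endothelial and 561 to 749 for hair follicle genes. They were 53893 to 55654 for dermal fibroblast and 665 to 1061 for melanocyte genes. Muscle genes (4) summed to 8309 to 14255 at E14.5, against 36118 to 39352 at E16.5. The part of these cells in the desmosomal results was not tested. In whole skin a change in the number of cells of one type and a change in RNA per cell cannot be told apart.

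**Figure D1:**
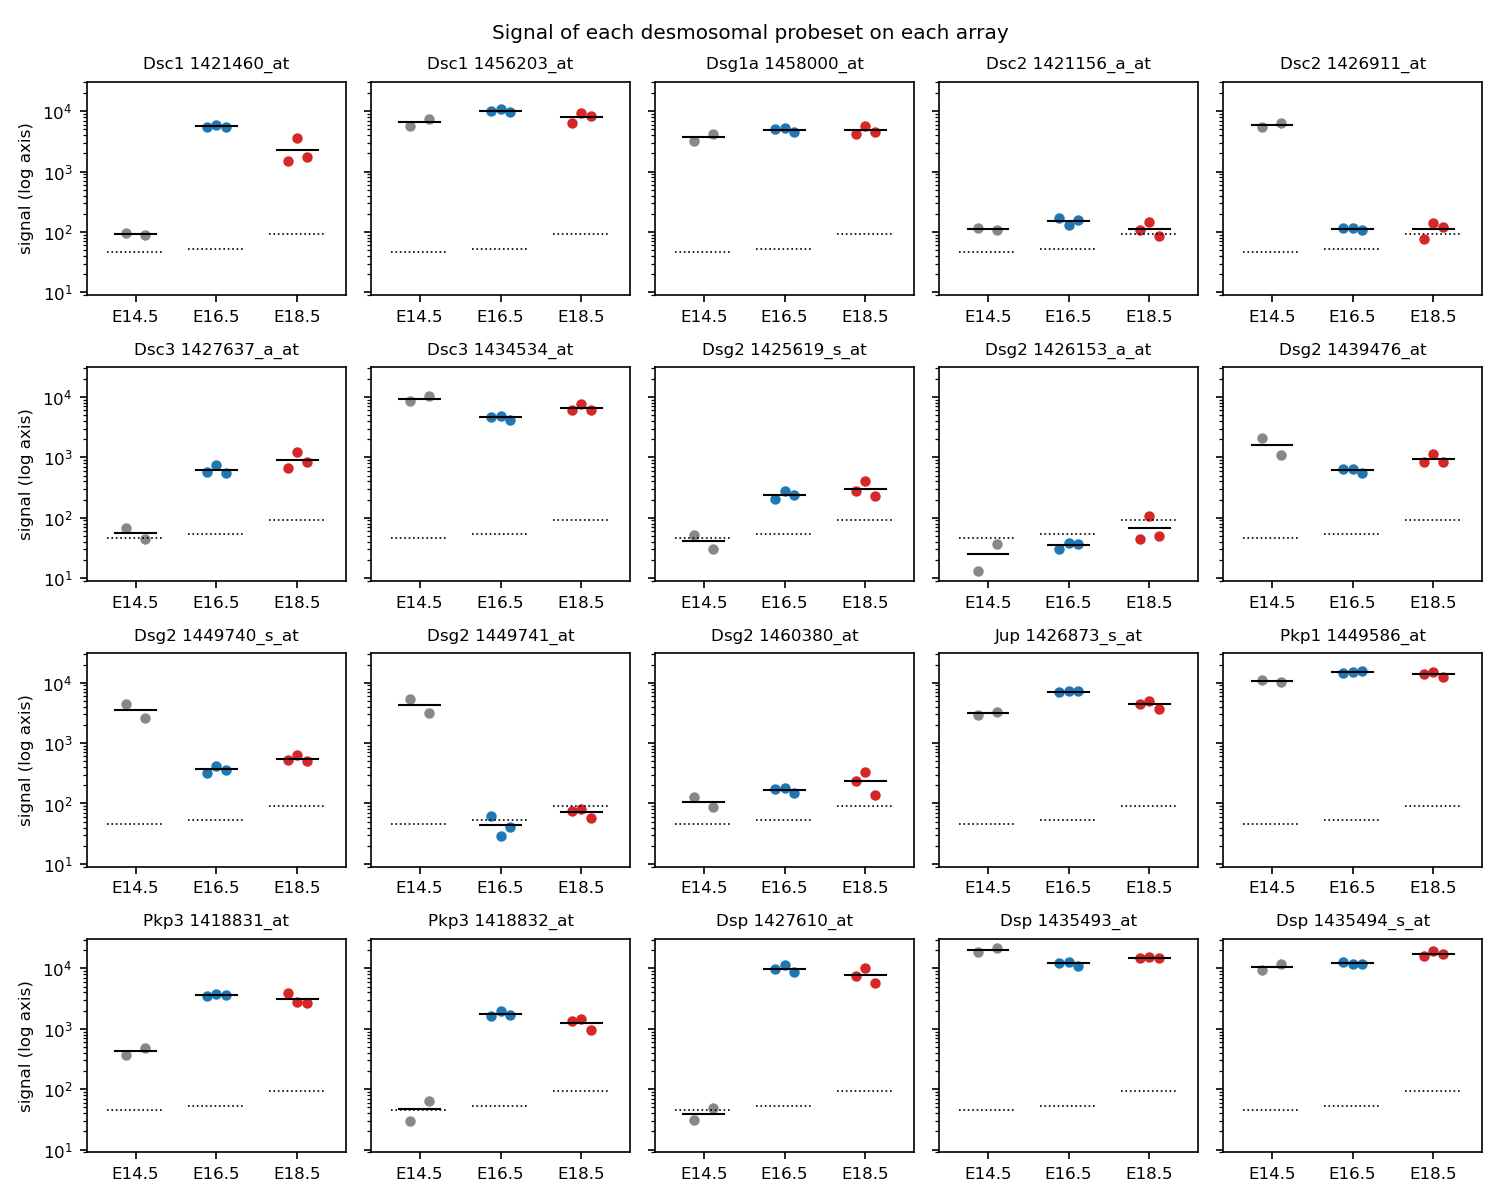
Signal (log axis) of each of the 20 desmosomal probesets on each array by stage, with a point per array, a solid bar at the stage mean and a dotted bar at the highest background of the stage's arrays. The Dsc1 probeset 1421460_at and the Dsp probeset 1427610_at are near background at E14.5 and bright later, whereas Dsc2 1426911_at and Dsg2 1449741_at are bright at E14.5 and near background later.

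Between E16.5 and E18.5 the desmosomal genes had no common direction. Jup and one Dsc1 probeset fell, one Dsc3 and one Dsp probeset rose, and Dsg1a, Dsg2, Dsc2, Pkp1 and Pkp3 did not pass the test. In all, 4 of the 20 probesets were called by limma at an adjusted p under 0.05, against 10.7% of all 34945 probesets. Of these, 2 rose, against 6.27% of all probesets, and 2 fell, against 4.44%. The arrays of the stages did not overlap in 10 of the 20, against 36.8% of all probesets. The median log2 change of the 20 was 0.13, close to the 0.12 of all probesets. Among all called probesets 58.6% rose, and 38.5% did so under median centring.

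Jup, the plaque protein that links every desmosomal cadherin to desmoplakin, fell in every setting tried. Its signals were 4482, 5019 and 3692 at E18.5, against 6985, 7267 and 7163 at E16.5. Every E18.5 array lay below every E16.5 array. The mean was 4398 ± 668 at E18.5 and 7138 ± 143 at E16.5 (SD, n = 3 each), which is 1.63-fold lower (log2 change -0.71 ± 0.12 SE, limma adjusted p = 0.00642). Jup was called in all 16 alternative settings, with log2 changes of -0.82 to -0.59 and adjusted p up to 0.0456.

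Dsc1, the desmocollin of the differentiating layers, gave a fall on one of its probesets. On 1421460_at the signals were 1526, 3585 and 1750 at E18.5, against 5538, 5801 and 5571 at E16.5. The E18.5 arrays were all lower, and the array of E18.5 replicate 2 stood well above the others of its stage. The log2 change was -1.40 ± 0.26 SE (2.64-fold lower, n = 3 each, limma adjusted p = 0.00851), and it was called in all 15 alternatives, from -1.78 to -1.16 with adjusted p up to 0.0413. The second Dsc1 probeset, 1456203_at, had signals of 6430, 9235 and 8464 at E18.5, against 10079, 10915 and 9525 at E16.5. These did not overlap either, but the change of -0.35 ± 0.15 was not called (adjusted p = 0.16, and 0.0658 to 0.368 over its alternatives).

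Dsg1a, the desmoglein of the upper layers, had signals of 4133, 5772 and 4544 at E18.5, against 4980, 5171 and 4463 at E16.5. The stages overlapped, and the log2 change was -0.03 with a 95% interval of -0.36 to 0.30. Dsg1a has close copies, Dsg1b and Dsg1c, whose transcripts may hybridise to the same probes, so its separate value is uncertain.

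Among the cadherins of the basal and lower layers, Dsc3 was the one called. Its brighter probeset, 1434534_at, had signals of 6017, 7551 and 5975 at E18.5, against 4629, 4916 and 4206 at E16.5. All E18.5 arrays were higher (log2 change 0.50 ± 0.13 SE, 1.41-fold, n = 3 each, limma adjusted p = 0.0358). The call was lost under quantile normalization, median centring and no variance trend (adjusted p = 0.0547, 0.114 and 0.121) and without E16.5 replicate 1, 2 or 3 or E18.5 replicate 2 (adjusted p = 0.106, 0.0785, 0.151 and 0.0868). As its own change stood at 0.38 to 0.56 throughout, the direction held. The dimmer Dsc3 probeset, 1427637_a_at, had a log2 change of 0.49 ± 0.24, which was not called (adjusted p = 0.218). Its signals were 665.5, 1204 and 831 at E18.5, against 573, 744 and 557 at E16.5, with overlap.

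Dsg2 gave log2 changes of 0.29 to 0.63 on its 6 probesets, and 0 of these were called by limma in the fit of all arrays. The probeset 1426153_a_at (0.63) was above background on 1 of 3 arrays at each stage. Another, 1449741_at (0.58), was above it on 2 of 3 arrays at E16.5 and 1 of 3 at E18.5. The sizes of both changes are uncertain. All 6 probesets read the same gene and are not separate results. The 2 that were brightest at E16.5 and E18.5 had limma unadjusted p of 0.0192 and 0.0203. One of these, 1449740_s_at, had signals of 522, 636 and 501 at E18.5, against 323, 424 and 360 at E16.5 (log2 change 0.56 ± 0.20, adjusted p = 0.105). The other, 1439476_at, had signals of 846, 1142 and 850 at E18.5, against 631, 648 and 548 at E16.5 (0.61 ± 0.22, adjusted p = 0.108). Neither overlapped between stages. Dsg2 1439476_at passed the test when only the E16.5 and E18.5 arrays were fitted (adjusted p = 0.0428) and without E14.5 replicate 1 or 2 (adjusted p = 0.041 and 0.0397). Dsc2 was dim at these stages, at 106, 148 and 84.8 at E18.5, against 169, 129 and 160 at E16.5 on 1421156_a_at, with overlap and no call (adjusted p = 0.338). On Dsc2 1426911_at the signals were 77.9, 139 and 123 at E18.5, against 114, 114 and 109 at E16.5, also with overlap (adjusted p = 0.956).

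Dsp, which anchors the keratin filaments, differed between its probesets. On 1435494_s_at the signals were 16347, 19380 and 17118 at E18.5, against 12818, 11960 and 11768 at E16.5, with no overlap. This rise of 0.53 ± 0.11 on the log2 scale (SE, 1.44-fold, n = 3 each) was called by limma (adjusted p = 0.0157), but not under quantile normalization (adjusted p = 0.189), median centring (adjusted p = 0.069) or no variance trend (adjusted p = 0.0861), nor when E16.5 replicate 2 or 3 was left out (adjusted p = 0.0692 and 0.0766). On 1435493_at the signals were 14769, 15480 and 14813 at E18.5, against 12500, 12609 and 11122 at E16.5 (0.32 ± 0.10, adjusted p = 0.0663). That change was called among probesets above background on at least 2 arrays (adjusted p = 0.0351). The third probeset, 1427610_at, had a log2 change in the other direction, -0.39 ± 0.20 (adjusted p = 0.234). Its signals were 7424, 10012 and 5844 at E18.5, against 9678, 11326 and 8872 at E16.5, and overlapped.

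The plakophilins were not called. Pkp1, which binds desmoplakin and keratins in the suprabasal plaque, had 14102, 14762 and 12340 at E18.5, against 14259, 14967 and 15376 at E16.5. The log2 change was -0.12 with a 95% interval of -0.34 to 0.11, and it was called under quantile normalization (-0.34, adjusted p = 0.038). Pkp3, the broadly placed plakophilin, had 3885, 2825 and 2699 at E18.5, against 3499, 3795 and 3584 at E16.5 on 1418831_at, with overlap (-0.23 ± 0.16, adjusted p = 0.394). On 1418832_at it had 1334, 1466 and 965 at E18.5, against 1632, 1953 and 1702 at E16.5, without overlap (-0.50 ± 0.23, unadjusted p = 0.0489, adjusted p = 0.179).

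**Figure D2:**
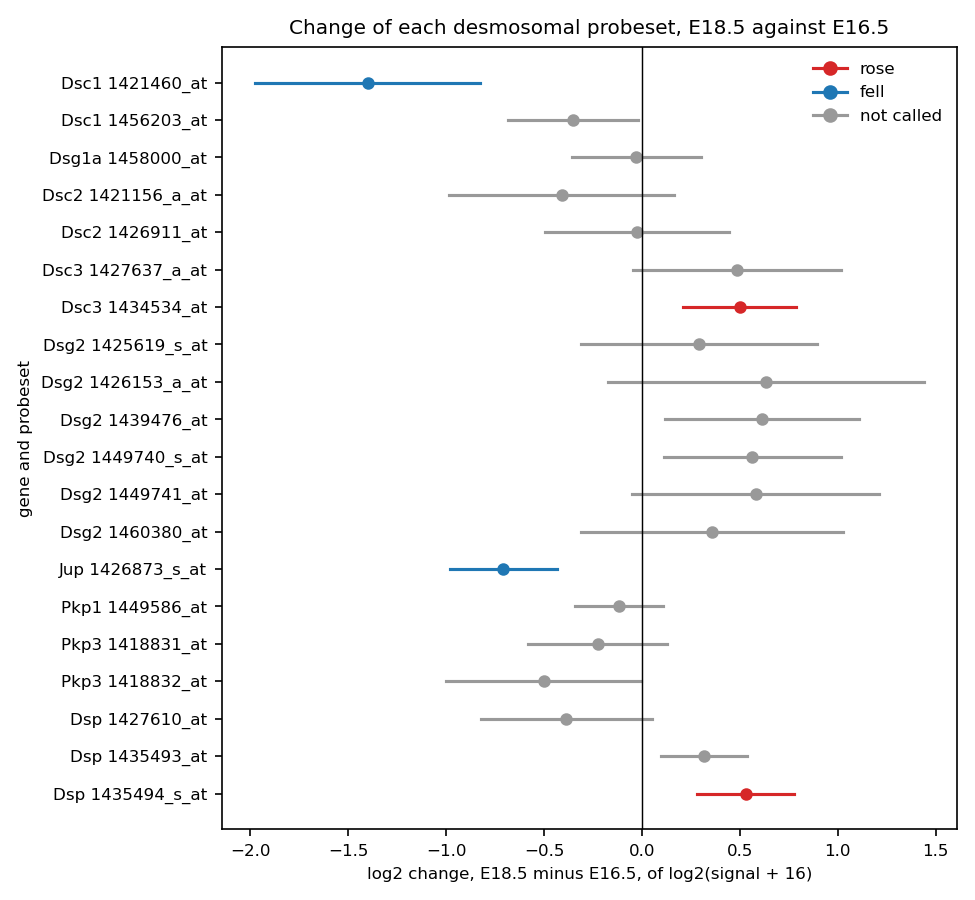
Log2 change of each desmosomal probeset, E18.5 minus E16.5, with 95% intervals from limma. Red marks the 2 probesets that rose (Dsc3 1434534_at and Dsp 1435494_s_at), blue the 2 that fell (Dsc1 1421460_at and Jup 1426873_s_at) and grey those not called.

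The paralogues of the differentiating and the basal layers were set against each other as a log2 ratio within each array. Such a ratio shows only whether a pair changed unequally. The probeset used was the brightest of each gene by its mean over all 8 arrays. For Dsc2 and Dsg2 the bright E14.5 signals decided this choice. At E16.5, Dsc2 1421156_a_at (mean 153) and Dsg2 1439476_at (mean 609) were brighter than the probesets used (112 and 369). Dsc1 over Dsc3 was 0.10, 0.29 and 0.50 at E18.5, against 1.12, 1.15 and 1.18 at E16.5. The ratio was 0.85 lower in E18.5 skin, and its arrays did not overlap. Dsg1a over Dsg2 was 2.95, 3.15 and 3.14 at E18.5, against 3.88, 3.56 and 3.57 at E16.5, a difference of -0.59, also without overlap. Dsc1 over Dsc2 differed by -0.33, likewise without overlap, although Dsc2 was close to background.

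In these 3 pairs, read at the brightest probesets, the differentiation-linked paralogue was lower relative to its basal or broad paralogue at E18.5. The Dsc1 pairs share the probeset Dsc1 1456203_at and are not separate results. That probeset changed by -0.35 and Dsc2 1426911_at by -0.02, neither of them called. Over every combination of 1 probeset of each gene, a comparison added after the values were seen, Dsc1 over Dsc3 kept this direction in 4 of 4 and Dsg1a over Dsg2 in 6 of 6, but Dsc1 over Dsc2 in 3 of 4. All 6 combinations of Dsg1a over Dsg2 share the same Dsg1a probeset, and Dsg2 1426153_a_at and 1449741_at lay near background. The desmoglein direction rests on Dsg1a, since its close copy Dsg1b rose by 0.99, more than the 0.56 of Dsg2 1449740_s_at. Each of the 3 pairs gave p = 0.1 in a two-sided exact permutation test, the smallest that 3 against 3 arrays can give, and 0.133 after Benjamini-Hochberg adjustment over the 4 pairs. This test cannot reach 0.05 with so few arrays. Pkp1 over Pkp3 was 1.86, 2.38 and 2.19 at E18.5, against 2.02, 1.97 and 2.10 at E16.5, which overlapped (difference 0.11, exact permutation p = 0.6). With the mean of all probesets of each gene, the differences were -1.37 for Dsc1 over Dsc3, -0.66 for Dsc1 over Dsc2 and -0.53 for Dsg1a over Dsg2.

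**Figure D3:**
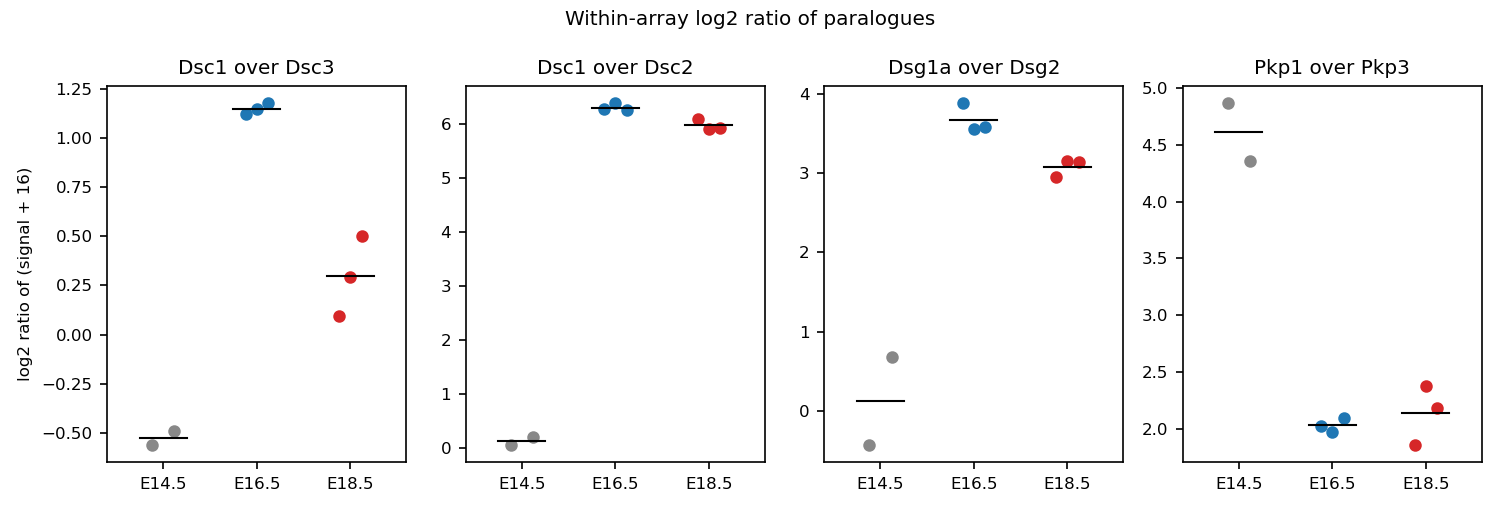
Log2 ratio of (signal + 16) of each pair of paralogues on each array by stage, with a point per array and a bar at the stage mean; each panel has its own axis. The ratios of Dsc1 over Dsc3, Dsc1 over Dsc2 and Dsg1a over Dsg2 are highest at E16.5, and that of Pkp1 over Pkp3 is highest at E14.5.

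At E18.5 and at E16.5, but not at E14.5, most desmosomal probesets were highest on the same array. The array of E18.5 replicate 2 had the highest signal of its stage for 19 of the 20 probesets, against 28.5% of all probesets. Its desmosomal signals differed from the mean of the other E18.5 arrays by a median of 0.39 on the log2 scale, where all probesets had a median of -0.04. At E16.5, replicate 2 was highest for 16 of 20, against 35.3% of all probesets, with a median difference of 0.13. At E14.5, 9 of 20 were highest on replicate 1 and 11 of 20 on replicate 2, near the 46.7% and 53.3% of all probesets. On the array of E16.5 replicate 2 the epidermal markers were mostly highest too, with 3 of 4 basal and 5 of 5 suprabasal markers, as were 3 of 4 periderm and 3 of 4 dermal fibroblast genes. On that of E18.5 replicate 2 fewer were. Of the 4 basal markers 1 was highest there, which was Trp63, and of the 5 suprabasal markers 1 was highest there. The 4 muscle genes were lower there, with a median difference of -0.85. The 4 dermal fibroblast genes were all highest in E18.5 replicate 3, and the hair follicle and periderm genes were all highest in replicate 1. The part of E18.5 replicate 2 in the changes was not tested beyond leaving it out, after which Dsc1 1421460_at and Jup remained called and Dsc3 did not.

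**Figure D4:**
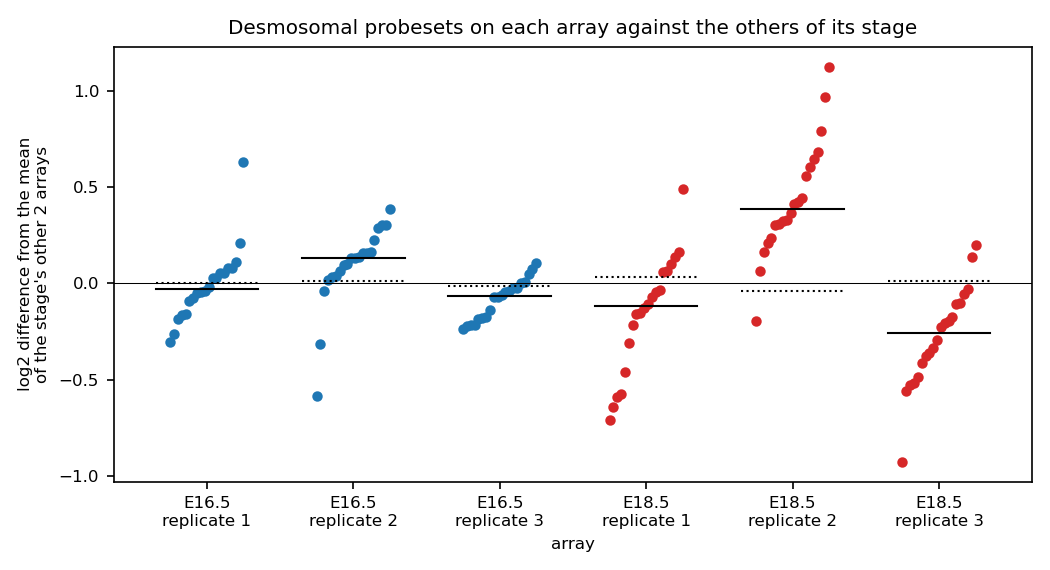
Difference of each desmosomal probeset on an array from the mean of the stage's other 2 arrays, in log2(signal + 16), for the E16.5 and E18.5 arrays. Points are the 20 probesets in rising order, solid bars their median and dotted bars the median of all probesets, and the points of E18.5 replicate 2 lie mostly above 0 with a median of 0.39.

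Between E14.5 and E16.5 most desmosomal probesets were called, but probesets of the same gene often went opposite ways. Of the 20, limma called 15, of which 9 rose and 6 fell, against 57.6% of all probesets (38.9% rose and 18.7% fell). Arrays did not overlap in 19 of the 20, against 73.7% of all. The median log2 change of the 20 was 0.44, and that of all probesets 0.38. Of 5 desmosomal genes with at least 2 called probesets, Dsc3, Dsg2 and Dsp had probesets called in opposite directions. Among all 5068 such genes the share was 50.1%. For E18.5 against E16.5 it was 16.7% of 498 genes, and 0 desmosomal genes had 2 called probesets there. The share of calls that rose was 67.5%, 51.4% under quantile normalization and 33.1% under median centring. These scalings moved the median change of all probesets to -0.026 and -0.57. Median centring lowered every change here by 0.95, so a smaller rise turns sign under it whatever the gene.

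The probesets of Dsp, the keratin anchor, disagreed. On 1427610_at its signals were 9678, 11326 and 8872 at E16.5, against 31.2 and 48.0 at E14.5, where 1 of the arrays lay below background (log2 change 7.50 ± 0.22 SE, n = 3 and 2, limma adjusted p = 1.49e-08). On 1435493_at the signals were 12500, 12609 and 11122 at E16.5, against 18932 and 21427 at E14.5, a fall of 0.74 ± 0.11 (adjusted p = 0.000157). On 1435494_s_at no call was made (0.21 ± 0.13, adjusted p = 0.183), while quantile normalization gave a rise of 0.77 (adjusted p = 0.000348) and median centring a fall of 0.74 (adjusted p = 0.00104). One probeset thus placed Dsp near background at E14.5 and the others among bright signals, so no direction can be given for the gene.

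Dsc3 and Dsg2 split in the same manner. Dsc3 on 1427637_a_at had 573, 744 and 557 at E16.5, against 67.8 and 45.3 at E14.5 (log2 change 3.15 ± 0.27 SE, limma adjusted p = 2.38e-06). Dsc3 on 1434534_at had 4629, 4916 and 4206 at E16.5, against 8453 and 10391 at E14.5 (-1.03 ± 0.15, adjusted p = 0.000107). For Dsg2, 3 probesets fell, with log2 changes of -6.15 to -1.29, 1 rose by 2.19 ± 0.30 and 2 were not called. The Dsg2 probeset with the largest fall, 1449741_at, had 62.0, 28.4 and 41.1 at E16.5, against 5310 and 3177 at E14.5. At E16.5, 1 of these arrays lay below background, as did 1 of the E14.5 arrays of the probeset that rose, 1425619_s_at, which had 51.9 and 29.9 there. The sizes of both changes are therefore uncertain.

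Dsc2 gave one large fall. On 1426911_at it had 114, 114 and 109 at E16.5, against 5521 and 6427 at E14.5 (log2 change -5.54 ± 0.24 SE, limma adjusted p = 3.77e-08), called in all 16 alternatives. On 1421156_a_at it had 169, 129 and 160 at E16.5, against 116 and 109 at E14.5, which was not called (0.39 ± 0.29, adjusted p = 0.281).

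Dsc1, Pkp1, Pkp3 and Jup were called higher at E16.5 on the deposited scale, and Dsg1a was not called. Dsc1 rose on both probesets, by 5.68 ± 0.29 on 1421460_at, where E14.5 had 97.8 and 90.3, and by 0.64 ± 0.17 on 1456203_at, where E14.5 had 5716 and 7401. The probesets thus placed Dsc1 at very unlike levels at E14.5, so no size of the rise can be given for the gene. The smaller rise was -0.31 under median centring (adjusted p = 0.141), and was not called without E14.5 replicate 1 (adjusted p = 0.0939). Dsg1a had 4980, 5171 and 4463 at E16.5, against 3254 and 4202 at E14.5, and was not called (0.39 ± 0.17, adjusted p = 0.0638).

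Pkp3 rose on both of its probesets and in every alternative. On 1418831_at it had 3499, 3795 and 3584 at E16.5, against 364 and 486 at E14.5 (log2 change 3.06 ± 0.18 SE, limma adjusted p = 1.98e-07). On 1418832_at the change was 4.89 ± 0.25, with 1 of the E14.5 arrays below background. Pkp1 rose by 0.48 ± 0.11, with 11047 and 10236 at E14.5, with 1.04 under quantile normalization (adjusted p = 9.92e-06) and -0.47 under median centring (adjusted p = 0.0109). Jup had 2968 and 3253 at E14.5 and rose by 1.20 ± 0.14 at E16.5 (adjusted p = 2.29e-05). Its call was lost under median centring (0.24, adjusted p = 0.205).

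**Figure D5:**
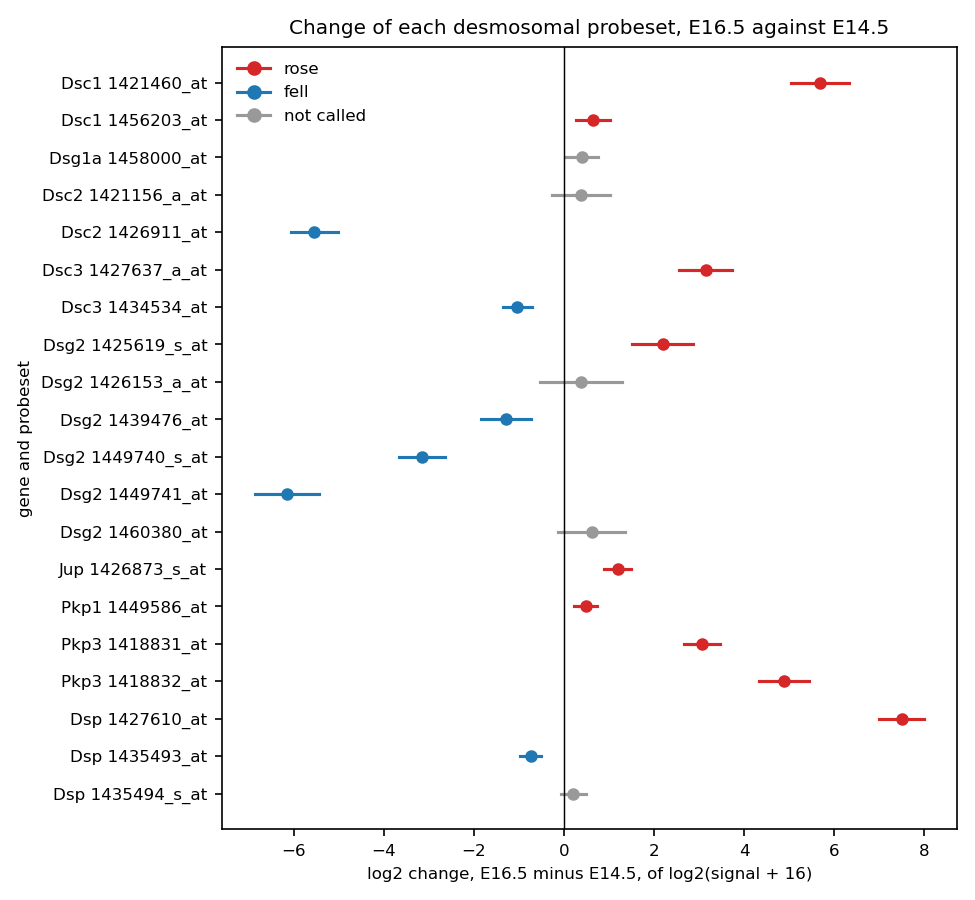
Log2 change of each desmosomal probeset, E16.5 minus E14.5, with 95% intervals from limma, ordered by gene. Red marks the 9 probesets that rose, blue the 6 that fell and grey those not called; Dsc3, Dsg2 and Dsp have probesets on each side of 0.

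The paralogue ratios differed as well. The Dsc2 and Dsg2 probesets used were chosen through their bright E14.5 signals, so their ratios are partly set by that choice. Dsc1 over Dsc3 was 1.15 ± 0.03 at E16.5 (SD, n = 3), against -0.53 ± 0.05 at E14.5 (n = 2). Dsc1 over Dsc2 was 6.31 ± 0.07 at E16.5, against 0.13 ± 0.11 at E14.5, and Dsg1a over Dsg2 was 3.67 ± 0.18 at E16.5, against 0.13 ± 0.79 at E14.5. Pkp1 over Pkp3 went the other way, with 2.03 ± 0.06 at E16.5, against 4.61 ± 0.36 at E14.5. The arrays of the stages did not overlap in any of the 4 pairs, and each gave p = 0.1 in the exact permutation test, the smallest that 3 against 2 arrays can give. With the mean of all probesets of each gene the differences were 2.10, 5.74, 1.63 and -3.49. The choice of probeset decided the direction in 2 pairs. Over every combination of probesets the difference was -2.51 to 6.72 for Dsc1 over Dsc3 and -1.80 to 6.54 for Dsg1a over Dsg2. It was 0.25 to 11.2 for Dsc1 over Dsc2 and -4.40 to -2.58 for Pkp1 over Pkp3.

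E18.5 against E14.5 shares its arrays with the comparisons above. Here 16 of the 20 probesets were called, against 59.8% of all, with 10 that rose (42.9% of all) and 6 that fell (16.9% of all). Arrays did not overlap in 16 of the 20, against 69.6% of all probesets. Dsc3, Dsg2 and Dsp again had probesets called in opposite directions. Under median centring, which lowered every change here by 1.07, 6 rose and 11 fell. Falls were also the larger part among all probesets under that scaling, with 6729 that rose and 13740 that fell. Rises made up 32.9% of all calls there, against 71.7% on the deposited scale. Jup was 1.40-fold higher at E18.5 (log2 change 0.49 ± 0.14 SE, limma adjusted p = 0.0102, and 0.077 without E14.5 replicate 1), but was called lower under median centring (-0.58, adjusted p = 0.00885). Dsc1 remained 4.28 ± 0.29 higher on 1421460_at and was not called on 1456203_at (0.29 ± 0.17, adjusted p = 0.163).

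Dsc1 1421460_at and Jup were the 2 desmosomal probesets that rose by E16.5 and then fell, a sequence called in 2.86% of all probesets. Dsc3 1434534_at fell and then rose, as did 2.78% of all. Both steps of such a sequence share the E16.5 arrays.

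Other desmosome and plakin genes were read at their brightest probeset, as were the adherens junction and corneodesmosome genes below. The shares given beside these lists are over all probesets, dim ones included, and were not matched for brightness. Of 8 desmosome and plakin genes measured from a list of 10, 2 rose, 2 fell and 4 were not called between E16.5 and E18.5. Of all probesets 6.27% rose and 4.44% fell there. The median log2 change of the 8 genes was 0.15, where all probesets had 0.12. The plakins Ppl (periplakin) and Evpl (envoplakin), which build the cornified envelope at desmosomes, fell. Ppl had 4313, 5261 and 4007 at E18.5, against 7966, 8248 and 8554 at E16.5 (-0.87 ± 0.15 SE, limma adjusted p = 0.00551), called in all 16 alternatives. Evpl had 2855, 2697 and 2223 at E18.5, against 4249, 3976 and 4434 at E16.5 (-0.71 ± 0.14, adjusted p = 0.0127), but was not called when E16.5 replicate 1 or 3 was left out (adjusted p = 0.0539 and 0.0681) or with no variance trend (adjusted p = 0.057). Like Jup, both had been called higher at E16.5 than at E14.5, by 2.13 ± 0.16 and 2.53 ± 0.16. In that earlier comparison 3 of the 8 genes rose and 4 fell, against 38.9% and 18.7% of all probesets. Those that fell were Dsg1b (-2.93 ± 0.23, limma adjusted p = 1.28e-06), Pkp2 (-2.84 ± 0.63), Pkp4 (-2.52 ± 0.11) and Perp (-0.61 ± 0.13), a membrane protein of desmosomes. The size of the Pkp2 fall is uncertain. Its signals were 34.3, 37.2 and 43.0 at E16.5, near background, against 988 and 133 at E14.5. The Pkp2 change was -4.22 to -1.46 with an array left out.

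The 2 that rose were Dsg1b, by 0.99 ± 0.20 (adjusted p = 0.0139, and 0.065 without E16.5 replicate 3), and Pkp4, a relative of the plakophilins that also sits at adherens junctions, by 0.50 ± 0.10 (adjusted p = 0.0123, 0.0573 under median centring and 0.0738 with no variance trend). Pkp4 was also not called when E16.5 replicate 1, 2 or 3 was left out (adjusted p = 0.055, 0.052 and 0.0668). Cdsn, which encodes corneodesmosin, had 5330, 7158 and 5903 at E18.5, against 3527, 6872 and 6771 at E16.5, with no call (adjusted p = 0.723). At E14.5 it had 14.8 and 23.4, below background, and its E16.5 signal was at least 90.3-fold higher, with background in place of the dimmer signals.

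Adherens junction genes, which serve the neighbouring cadherin junction, also went both ways. Of 10 measured, 2 rose, 2 fell and 6 were not called between E16.5 and E18.5, where 6.27% of all probesets rose and 4.44% fell. Their median log2 change was 0.05, where all probesets had 0.12. Cdh1 (E-cadherin) rose by 0.74 ± 0.14 (limma adjusted p = 0.0097, 0.0533 with no variance trend and 0.0554 without E16.5 replicate 3), with 7390, 7346 and 5581 at E18.5, against 3775, 4705 and 3618 at E16.5. Ctnnb1 (beta-catenin), the close relative of Jup, rose by 0.54 ± 0.09 (adjusted p = 0.00463, 0.0855 under quantile normalization and 0.0577 with no variance trend), with 19696, 20653 and 19418 at E18.5, against 13549, 14194 and 13343 at E16.5. Ctnnd1 (p120 catenin) fell by 0.58 ± 0.13 and Nectin4 by 0.80 ± 0.22. Ctnnd1 was not called without E16.5 replicate 1, 2 or 3 (adjusted p up to 0.0916) or with no variance trend (adjusted p = 0.0775). Nectin4 was not called without any 1 of the E16.5 and E18.5 arrays (adjusted p = 0.0566 to 0.185), with a pseudocount of 1 (adjusted p = 0.0549), under quantile normalization (adjusted p = 0.0554) or with no variance trend (adjusted p = 0.0937). Between E14.5 and E16.5, 4 of the 10 genes rose and 5 fell, against 38.9% and 18.7% of all probesets. Cdh1 (-1.06 ± 0.16) and Ctnnb1 (-0.72 ± 0.10) were among those that fell. Neither was called between E14.5 and E18.5 (limma adjusted p = 0.109 and 0.146).

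Of the genes that cut or protect corneodesmosomes, the proteases Klk5 and Klk7 and the inhibitor Spink5 were measured. Limma called 0 of the 3 between E16.5 and E18.5, against 10.7% of all probesets, and 0 had an unadjusted p under 0.05. Spink5 (-0.85 ± 0.43) was called when the E16.5 and E18.5 arrays were fitted alone (adjusted p = 0.0358) and when E14.5 replicate 1 or 2 was left out (adjusted p = 0.0364 and 0.037). All 3 were called higher at E16.5 than at E14.5, where 38.9% of all probesets rose and stage cannot be told apart from array preparation. Klk5 rose by 5.28 ± 0.27 and Spink5 by 3.18 ± 0.48 on the log2 scale. Klk7 had 3.79 and 4.65 at E14.5, below background, and was at least 135-fold higher at E16.5.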

How the data were processed

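Skin RNA was isolated with Trizol and amplified with random hexamers into sense-strand DNA, per the labels' protocols. The deposited values are signal intensity on a linear scale for 45101 probesets, for which PLIER 2.0 and Expression Console 1.1 are named per the submitters' processing notes. Any background correction or array normalization remains not given in the sources used here. Genes were named from GEO's platform annotation, and 932 probesets with several symbols, 9211 with none and 64 controls were left out.

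Signals were analysed as log2(signal + 16). One mean per stage was fitted to all 8 arrays with limma 3.58.1 in R 4.3.3 (eBayes with a variance trend), with Benjamini-Hochberg adjustment over 34945 probesets and calls at an adjusted p under 0.05. SE is limma's. In simulated data for E18.5 against E16.5 with 34945 probesets, 29% of log2 changes of 1 and 70% of those of 2 were recovered. Each size was given to 100 probesets, with 6 false calls listed for each. Paralogue ratios were tested by exact permutation over arrays, and the number of arrays limits the precision.

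Alternatives were quantile normalization, median centring, a pseudocount of 1 or 64, a background filter, no variance trend, only the stages compared, 1 row per gene, and each array left out. All member probesets are named, and of the other lists the called genes. Cdsn, Klk5, Klk7, Spink5 and the heart markers were named after their values were seen. The members and lists were chosen with earlier results of these data known. Replicate numbers follow accession order.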

Additional observations from a re-analysis of the deposited data

How the results depend on the processing

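No paired analysis was possible because the numbers in the sample titles have no stated meaning and no pair of stages shares more than 1 of them. Slide and scan batches are unknown and scanner files were not used here, so another background correction was not run. Between E16.5 and E18.5 the 2 desmosomal rises became 0 under quantile normalization, median centring and no variance trend, and 0 to 3 with an array left out, while Dsc1 1421460_at and Jup still fell in each of these settings. All probesets called numbered 3742, 2435 without a variance trend and 1208 to 4120 with an array left out, the fewest without E16.5 replicates 1, 2 and 3 (1662, 1563 and 1208). With the mean of a gene's probesets in place of the brightest, 0 genes in place of 1 rose between E16.5 and E18.5. There 2 (Dsc1 and Jup) in place of 1 fell. Between E14.5 and E16.5, 2 in place of 4 fell. Between E14.5 and E18.5, 6 in place of 3 rose and 2 in place of 4 fell. Dsc3 and Dsp turned from called falls to called rises in both comparisons with E14.5. At E16.5 against E14.5 their changes were 1.06 and 2.32 with the mean (limma adjusted p = 0.000607 and 9.63e-07). At the brightest probeset these were -1.03 and -0.74. From E14.5 to E18.5, median centring gave 6 rises and 11 falls, where 32.9% of the calls among all probesets were rises. The cause of these shifts was not tested.

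Median centring lowered every change by 0.12 (E18.5 against E16.5), 0.95 (E16.5 against E14.5) or 1.07 (E18.5 against E14.5), so called rises smaller than that turned sign by construction. From E14.5 to E16.5 they were Pkp1 (-0.47) and Dsc1 1456203_at (-0.31), and from E14.5 to E18.5 Jup (-0.58), Dsp 1435494_s_at (-0.33), Pkp1 (-0.70) and Dsg2 1460380_at (-0.091, and -0.069 under quantile normalization). Between E16.5 and E18.5, Pkp1 over Pkp3 was -0.10 under quantile normalization and -0.00997 to 0.25 with an array left out. With the mean of probesets the paralogue differences in that interval were -1.37 (Dsc1 over Dsc3) and -0.66 (Dsc1 over Dsc2). For E16.5 and E18.5 against E14.5 they were 2.10 for Dsc1 over Dsc3 (E16.5 alone), 5.74 and 5.08 for Dsc1 over Dsc2, 1.63 and 1.09 for Dsg1a over Dsg2, and -3.49 and -3.24 for Pkp1 over Pkp3. Against E14.5, Dsc1 over Dsc2 was 6.36 and 6.04 with a pseudocount of 1, 5.73 and 5.39 with 64, and 6.51 and 6.27 under quantile normalization, where Pkp1 over Pkp3 was -1.67 and -1.78. Over every combination of 1 probeset of each gene, chosen after seeing the data, E18.5 against E16.5 gave -1.90 to -0.84 for Dsc1 over Dsc3, -1.38 to 0.057 for Dsc1 over Dsc2, -0.66 to -0.32 for Dsg1a over Dsg2 and 0.11 to 0.38 for Pkp1 over Pkp3. E16.5 against E14.5 gave -2.51 to 6.72, 0.25 to 11.2, -1.80 to 6.54 and -4.40 to -2.58 for the same pairs, and E18.5 against E14.5 gave -3.35 to 4.81, 0.31 to 9.85, -2.12 to 5.93 and -4.02 to -2.47.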
